A study of Mus musculus with 4 samples.

Results

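The genes examined are those whose symbols begin with Nduf, which name the nuclear-encoded subunits and assembly factors of respiratory complex I. They were taken by symbol from the deposited expected-count and TPM tables, by a rule that uses no measured values. The group itself was chosen with earlier results of these data known. The rule found 45 genes of 24411, of which 38 carry subunit names (Ndufa, Ndufb, Ndufc, Ndufs, Ndufv and Ndufab1) and 7 are named as assembly factors (Ndufaf). They were compared between hematopoietic stem cells of Dis3-/- mice (Dis3fl/fl;Mx-Cre) and of wild-type mice (Dis3fl/fl without Cre), all on a C57BL/6 background, with 2 libraries per genotype. Per the labels' protocols, CD45.1 hosts were lethally irradiated and given donor marrow of 1 genotype or the other, and then 300 µg of pIpC on day 0 and again on day 2. pIpC mimics viral double-stranded RNA, and the interferon it elicits activates the Mx promoter, which drives Cre in hematopoietic and other responsive cells. No label states pIpC mouse by mouse, and its use in wild-type grafts is taken from a protocol common to both genotypes. Lineage-negative, EPCR+ CD150+ CD48- cells were sorted on day 4, with 100 cells in each library, and RNA was read by RamDA-seq, which covers total RNA over its whole length. The labels state neither the age of the mice nor which stretch of Dis3 lies between the loxP sites, so Dis3 counts may include reads of a transcript that lost only part of the gene.

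Complex I (NADH:ubiquinone oxidoreductase) is the entry point of electrons from NADH into the mitochondrial respiratory chain. Its matrix arm holds the N module, which oxidises NADH, and the Q module, which passes electrons through iron-sulfur clusters to ubiquinone, while its membrane arm pumps protons and has a proximal and a distal part. The proton-pumping core of the membrane arm is encoded in mitochondrial DNA, so the nuclear genes of that arm are accessory subunits, and assembly factors help to build the complex without staying in it. Quiescent hematopoietic stem cells are known for a low use of respiration and for mitochondrial activation when they leave quiescence.

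The libraries held 6085367 and 6442740 expected counts in Dis3-/- cells and 6818535 and 6251761 in wild-type cells. Dis3, which encodes the catalytic RNase of the RNA exosome, stood at 23.6 and 30.2 CPM (counts scaled to library size) in the Dis3-/- libraries and at 55.9 and 53.2 CPM in the wild-type libraries. The log2 fold change of Dis3 (Dis3-/- over wild type) was -1.02 ± 0.14 (SE; edgeR quasi-likelihood test, adjusted p = 2.58e-04), in the direction of the labels. All 15 genes on the stem cell list were above 0, among them the sort markers Procr (EPCR; 40.1 and 46.0 CPM in Dis3-/- cells, 43.1 and 40.5 CPM in wild-type cells) and Slamf1 (CD150). The list also holds Cd48, which the sort excludes (13.8 and 14.2 CPM in Dis3-/- cells, 17.6 and 24.1 CPM in wild-type cells), and Flt3 and Cd34, which are known for progenitors. Without these 3 genes, 5 of 12 fell and 1, Ly6a, rose (edgeR adjusted p under 0.05), against 10.2% and 12.7% of all tested genes. The 12 genes summed to 2765 and 2735 CPM in Dis3-/- libraries and 3840 and 3423 CPM in wild-type libraries.

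Most complex I genes were more abundant in Dis3-/- stem cells. Of the 45 genes, 43 passed the filter on low counts, and 24 of these rose while 0 fell at an edgeR adjusted p under 0.05 (Benjamini-Hochberg over 12244 genes). Across all tested genes 12.7% rose, 10.2% fell and 23.0% changed in either direction. The log2 fold change was above 0 for 42 of the 43 genes, with a median of 0.51, against a median of -0.00 over all tested genes. At an unadjusted p under 0.05 edgeR had 31 of them higher and 0 lower, against 19.0% and 16.7% of all tested genes, and DESeq2 and limma-voom also called 0 lower. DESeq2's Wald test called 11 of the 43 higher (8.17% of all genes), and limma-voom 24 (12.7% of all genes). Without the second wild-type library edgeR called fewer of the 43, at a median log2 fold change of 0.48. Both Dis3-/- libraries lay above both wild-type libraries for 36 of the 43 genes, a pattern shown by 31.9% of all tested genes. In bulk samples, a change in the make-up of the sorted cells and a change in RNA per cell cannot be told apart. The labels do not say whether the 2 libraries of a genotype came from separate mice, so the p-values measure only the spread between these libraries, which may be technical.

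**Figure D1:**
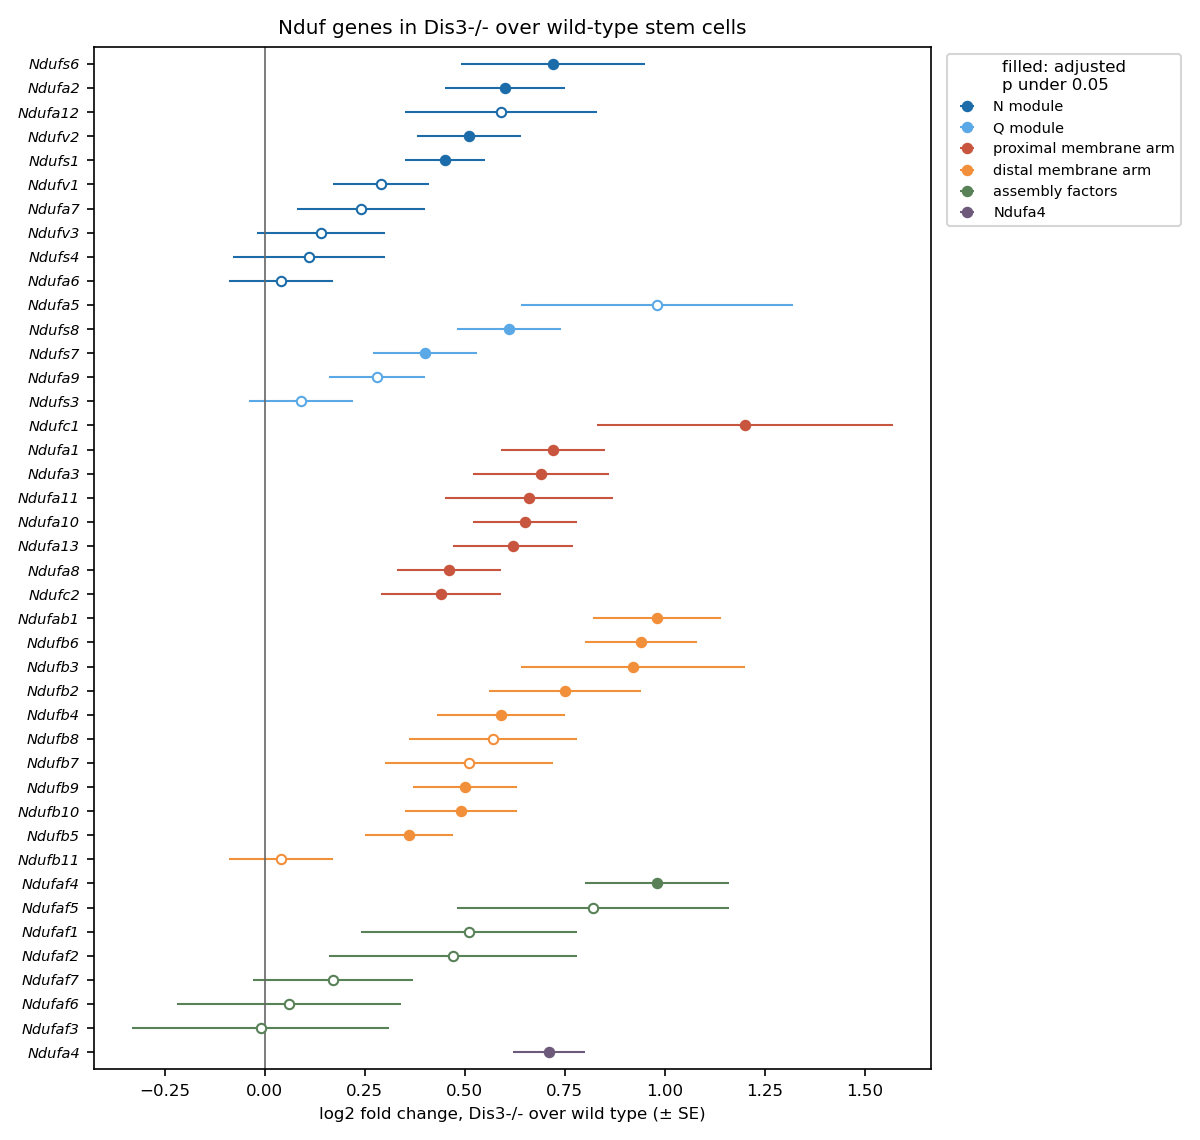
Log2 fold changes (Dis3-/- over wild type, horizontal axis) of 42 of the 43 tested Nduf genes, one gene a row, with bars of 1 SE; filled points have an edgeR adjusted p under 0.05. All 8 proximal membrane arm genes are filled, as are 6 matrix arm genes (N and Q modules) and 1 of the 7 assembly factors.

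Together the Nduf genes took 0.174% and 0.170% of all counts in the Dis3-/- libraries, against 0.129% in each wild-type library. On the length-scaled TPM scale they summed to 6266 and 6249 TPM in Dis3-/- libraries and 4678 and 4659 TPM in wild-type libraries, so the replicates of a genotype lay close together and the genotypes did not overlap. The 2 untested genes, Ndufs5, a subunit of the proximal membrane arm, and Ndufa4l2, a hypoxia-induced paralogue of Ndufa4, are listed at 0 in all 4 libraries. Ndufs5 is known as a ubiquitous subunit, so its 0 cannot be read as a lack of expression, and the cause was not tested. One gene outside the rule is 1810043H04Rik, an older symbol of Ndufaf8 in RefSeq, which is known to partner Ndufaf5. It had 11.4 and 10.2 CPM in Dis3-/- cells and 7.49 and 5.56 CPM in wild-type cells, a log2 fold change of 0.72 ± 0.28 (edgeR adjusted p = 0.0821) that did not pass the threshold.

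The transcription factor NRF1 is known to activate many nuclear respiratory genes, so promoters are shown for 2 genes that rose and hold its motif (Ndufaf4 and Ndufs6), 1 that holds it and did not pass the test (Ndufa6), and 1 that rose without it (Ndufab1). Each runs from 250 bases before to 50 bases after the RefSeq start, 5' to 3' on the gene's strand (GRCm38.p6, the assembly of mm10). Capitals mark NRF1 matches, and in Ndufs6 also the YY1 match close to the start. The windows are chr4:24897833-24898132 (plus strand) for Ndufaf4, chr13:73328433-73328732 (minus) for Ndufs6, chr15:82354242-82354541 (minus) for Ndufa6 and chr7:122101799-122102098 (minus) for Ndufab1.
Ndufaf4: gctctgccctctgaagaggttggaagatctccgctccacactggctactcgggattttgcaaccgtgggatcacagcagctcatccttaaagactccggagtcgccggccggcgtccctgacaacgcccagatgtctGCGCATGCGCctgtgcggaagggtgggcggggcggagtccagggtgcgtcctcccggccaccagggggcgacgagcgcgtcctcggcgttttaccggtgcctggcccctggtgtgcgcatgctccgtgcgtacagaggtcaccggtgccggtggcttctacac
Ndufs6: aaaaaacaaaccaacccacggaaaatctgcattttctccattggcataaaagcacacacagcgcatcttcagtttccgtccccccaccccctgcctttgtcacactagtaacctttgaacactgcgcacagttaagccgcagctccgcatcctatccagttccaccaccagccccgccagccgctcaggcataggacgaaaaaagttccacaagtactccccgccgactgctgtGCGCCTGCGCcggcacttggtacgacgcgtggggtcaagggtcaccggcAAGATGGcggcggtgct
Ndufa6: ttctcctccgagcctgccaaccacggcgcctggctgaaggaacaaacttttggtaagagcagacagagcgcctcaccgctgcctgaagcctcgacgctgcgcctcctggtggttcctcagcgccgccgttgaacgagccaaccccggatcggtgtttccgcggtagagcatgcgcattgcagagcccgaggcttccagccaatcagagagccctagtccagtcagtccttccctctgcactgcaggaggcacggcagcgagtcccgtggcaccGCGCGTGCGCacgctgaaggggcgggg
Ndufab1: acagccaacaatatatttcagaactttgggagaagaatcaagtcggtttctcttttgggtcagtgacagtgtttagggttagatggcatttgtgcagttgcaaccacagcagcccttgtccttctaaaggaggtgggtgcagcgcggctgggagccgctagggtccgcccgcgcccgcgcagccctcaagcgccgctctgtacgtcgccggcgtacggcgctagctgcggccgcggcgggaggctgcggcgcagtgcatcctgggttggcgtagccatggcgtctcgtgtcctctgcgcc
RefSeq promoter windows were matched for 39 of the 45 genes. The NRF1 motif, searched on both strands as GCGCA, any base and GCGC, was present in 9 of the 39 windows (23.1%), against 5.19% of the 27025 gene windows of that length. These were Ndufa5, Ndufa6, Ndufa8, Ndufa11, Ndufaf4, Ndufaf5, Ndufb4, Ndufs5 and Ndufs6. The 27025 windows include genes not tested here and were not matched to the Nduf windows in base content. Among windows of Nduf genes that rose the NRF1 motif was in 5 of 21 (23.8%), and among windows of tested Nduf genes that did not pass in 3 of 17 (17.6%). The YY1 motif AAGATGG was in 7 windows (17.9%, against 7.28% of all), and the ETS motif CCGGAAG, the core recognised by GABP, was in 5 (12.8%, against 9.93%). Both were searched on both strands, and a match to one can share its AAG with a match to the other. The E-box CACGTG was in 5.13% of the windows, against 8.09% of all, and the TATA letters TATAAA in 10.3%, against 15.7%. The letters GGGCGG of the Sp1 GC box were in 51.3%, against 38.2%, and CCAAT in 33.3%, against 41.1%.

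In the matrix arm 6 of 16 genes rose (37.5%, against 12.7% of all tested genes), 4 of 10 in the N module and 2 of 6 in the Q module, and the median log2 fold change over the arm was 0.35. DESeq2 called 3 of the 16 higher (8.17% of all genes). With either of the length offsets described further on edgeR called 2 of the 16, near the share of all genes (11.7% and 12.0%). The nuclear core subunits are all in this arm, and 4 of them rose. Ndufs1, the subunit with most of the iron-sulfur clusters of the N module, had 95.8 and 89.8 CPM in Dis3-/- cells and 69.6 and 66.4 CPM in wild-type cells (log2 fold change 0.45 ± 0.10, edgeR adjusted p = 0.00516). Ndufv2, which carries an iron-sulfur cluster beside the flavin, had 50.2 and 46.9 CPM in Dis3-/- cells against 33.9 and 34.5 CPM in wild-type cells (0.51 ± 0.13, edgeR adjusted p = 0.0113). Neither gene's genotypes overlapped. Ndufs8, whose clusters hand electrons on towards the quinone, had 68.2 and 63.0 CPM in Dis3-/- cells and 38.0 and 48.1 CPM in wild-type cells (0.61 ± 0.13, edgeR adjusted p = 0.00443). Ndufs7, which holds the last cluster before the quinone, had 44.9 and 43.9 CPM in Dis3-/- cells and 31.7 and 35.6 CPM in wild-type cells (0.40 ± 0.13, edgeR adjusted p = 0.0418).

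The core subunits Ndufv1 and Ndufs3 did not pass the test. Ndufv1, the flavin- and NADH-binding subunit, had 69.0 and 76.8 CPM in Dis3-/- cells and 64.3 and 54.6 CPM in wild-type cells, a log2 fold change of 0.29 ± 0.12 (edgeR adjusted p = 0.0866) with no overlap. Ndufs3, a Q module subunit, had 53.7 and 48.6 CPM in Dis3-/- cells and 44.8 and 51.5 CPM in wild-type cells (0.09 ± 0.13), and its genotypes overlapped. The 6 core genes described, whose products are present in equal number in the complex, thus had log2 fold changes between 0.09 and 0.61.

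Among the accessory genes of the matrix arm, Ndufs6, which attaches late with the N module, had 14.8 and 14.2 CPM in Dis3-/- cells and 8.93 and 8.73 CPM in wild-type cells (log2 fold change 0.72 ± 0.23, edgeR adjusted p = 0.0364). Ndufa2 rose by 0.60 ± 0.15 (edgeR adjusted p = 0.0106). Ndufa5, a Q module subunit, had 7.07 and 10.5 CPM in Dis3-/- cells and 4.32 and 4.61 CPM in wild-type cells, a log2 fold change of 0.98 ± 0.34 that missed the threshold (edgeR adjusted p = 0.0513). Another 5 matrix arm subunits did not pass either. Ndufa12 had 12.6 and 19.2 CPM in Dis3-/- cells and 9.94 and 11.3 CPM in wild-type cells (0.59 ± 0.24, edgeR adjusted p = 0.0981). Ndufa9, at the joint of the arms, had 59.9 and 57.2 CPM in Dis3-/- cells and 45.5 and 50.8 CPM in wild-type cells (0.28 ± 0.12). Ndufa7 had 33.2 and 29.2 CPM in Dis3-/- cells and 28.2 and 24.6 CPM in wild-type cells (0.24 ± 0.16). The libraries of these 3 genes did not overlap between genotypes. Ndufa6, a subunit that docks the acyl carrier protein, had 48.3 and 44.9 CPM in Dis3-/- cells and 48.6 and 42.2 CPM in wild-type cells (0.04 ± 0.13). Ndufs4, an N module subunit whose loss causes Leigh-like disease in mice, had 19.7 and 28.1 CPM in Dis3-/- cells and 22.9 and 21.6 CPM in wild-type cells (0.11 ± 0.19). Both overlapped between genotypes.

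Some matrix arm calls were lost when 1 library was left out. Ndufs6 and Ndufs7 missed the threshold in each of the 4 such fits, at edgeR adjusted p of 0.0938 to 0.117 and of 0.0512 to 0.208, while their log2 fold changes stayed at 0.69 to 0.75 and at 0.32 to 0.48. Ndufa2 (log2 fold change 0.44 to 0.77) missed it without the second Dis3-/- library (0.0670) and without the first wild-type library (0.0853; 0.00150 at the lowest). Ndufv1 passed without the first Dis3-/- library (0.0463) or the first wild-type library (0.0483; 0.426 at the highest). Ndufa5 (0.0277 to 0.358 over the 4 fits) and Ndufa12 (0.0150 to 0.621) passed without the first Dis3-/- library. Without the second Dis3-/- library fewer matrix arm genes rose, at a median log2 fold change of 0.32. Ndufs1, Ndufs8 and Ndufv2 stayed past the threshold in all 4 such fits.

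**Figure D2:**
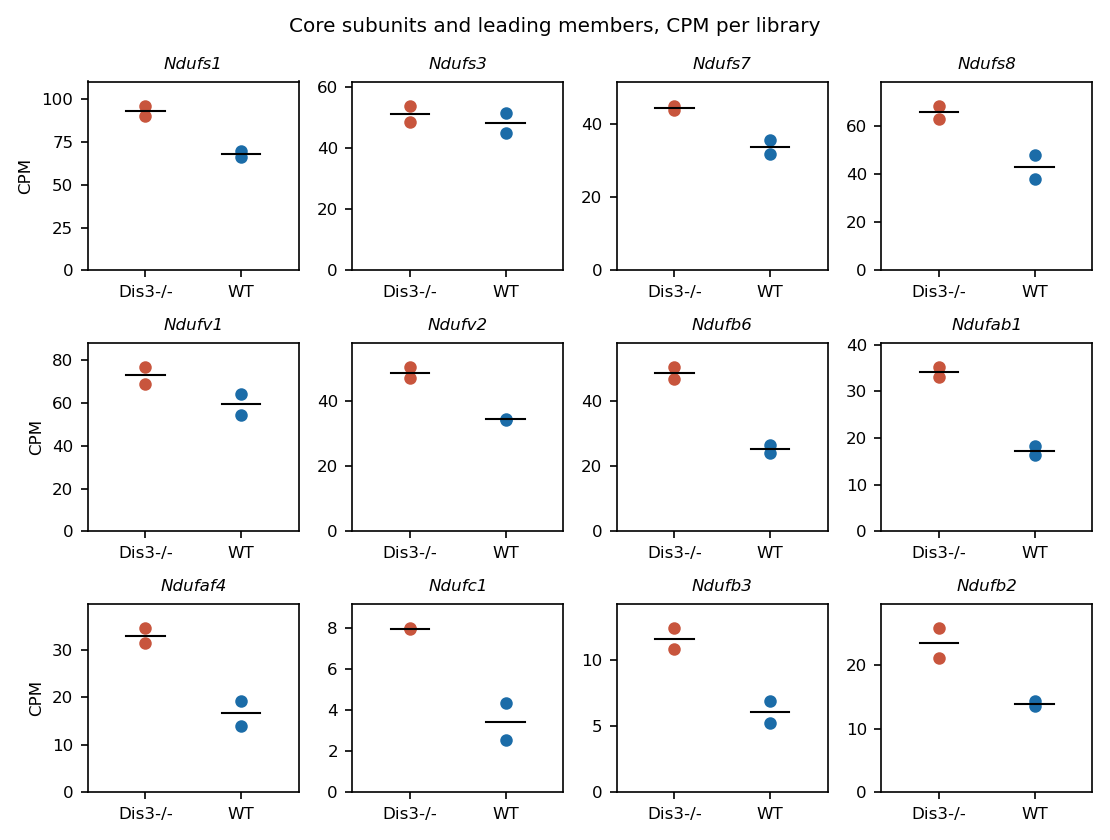
CPM in each library (points) and the genotype mean (line) for 6 core subunits and the 6 genes with the largest called log2 fold changes, Dis3-/- left of wild type, each axis starting at 0. Ndufs3 overlaps between genotypes, while Ndufb6 has 50.5 and 46.9 CPM in Dis3-/- cells and 24.2 and 26.5 CPM in wild-type cells.

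In the membrane arm 16 of 19 tested genes rose (84.2%, against 12.7% of all tested genes), at a median of 0.62 on the log2 scale. The count was 6 with DESeq2 (8.17% of all genes). It was 5 with the offset for annotated length (11.7% of all genes) and with that for implied length (12.0%). The difference between the arms was not tested. All 8 tested genes of the proximal part rose, between 0.44 and 1.20, of which 2 were called with the offset for annotated length and GC content and 3 with that for implied length. Ndufc1, a small subunit at the inner end of that arm, had the largest log2 fold change of all Nduf genes, 1.20 ± 0.37 (edgeR adjusted p = 0.0321), at a low level of 7.91 and 7.97 CPM in Dis3-/- cells and 4.32 and 2.54 CPM in wild-type cells. Those wild-type values rest on 30 and 16 counts, against 47 and 51 counts in Dis3-/- cells. Ndufa1, a single-pass membrane subunit needed early in assembly, had 50.0 and 49.1 CPM in Dis3-/- cells against 28.8 and 31.4 CPM in wild-type cells (0.72 ± 0.13, edgeR adjusted p = 0.00154). Ndufa10, a kinase-related subunit on the matrix face, had 62.1 and 56.1 CPM in Dis3-/- cells against 35.6 and 39.9 CPM in wild-type cells (0.65 ± 0.13, edgeR adjusted p = 0.00228). Neither gene overlapped between genotypes. Ndufa3, Ndufa11 and Ndufa13 (also known as GRIM-19) rose by 0.69 ± 0.17, 0.66 ± 0.21 and 0.62 ± 0.15, and Ndufa8 and Ndufc2 by 0.46 ± 0.13 and 0.44 ± 0.15 (edgeR adjusted p between 0.00813 and 0.0441 over the 5 genes).

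In the distal part 8 of 11 genes rose (72.7%, against 12.7% of all tested genes). Ndufab1, the mitochondrial acyl carrier protein, which also serves lipoic acid and iron-sulfur cluster synthesis outside complex I, had 35.2 and 33.0 CPM in Dis3-/- cells and 16.3 and 18.3 CPM in wild-type cells. It rose by 0.98 ± 0.16 on the log2 scale (edgeR adjusted p = 7.71e-04), and both Dis3-/- libraries lay well above both wild-type ones. Ndufb6 had 50.5 and 46.9 CPM in Dis3-/- cells against 24.2 and 26.5 CPM in wild-type cells (0.94 ± 0.14, edgeR adjusted p = 3.14e-04). Ndufb3 had 10.8 and 12.4 CPM in Dis3-/- cells against 6.92 and 5.24 CPM in wild-type cells (0.92 ± 0.28, edgeR adjusted p = 0.0290). Ndufb2 had 25.8 and 21.1 CPM in Dis3-/- cells against 14.3 and 13.5 CPM in wild-type cells (0.75 ± 0.19, edgeR adjusted p = 0.0117). These 3 structural subunits did not overlap between genotypes. Ndufb4, Ndufb9, Ndufb10 and Ndufb5 rose by 0.36 to 0.59.

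The 3 distal genes that did not pass were Ndufb7, Ndufb8 and Ndufb11. Ndufb8, whose protein is often used as a marker of assembled complex I, had 25.1 and 21.3 CPM in Dis3-/- cells against 13.0 and 18.4 CPM in wild-type cells (log2 fold change 0.57 ± 0.21, edgeR adjusted p = 0.0626). Ndufb7 had 16.3 and 20.8 CPM in Dis3-/- cells against 13.8 and 12.2 CPM in wild-type cells (0.51 ± 0.21, edgeR adjusted p = 0.0932). The X-linked Ndufb11 had 41.4 and 47.8 CPM in Dis3-/- cells against 41.5 and 45.6 CPM in wild-type cells (0.04 ± 0.13). It was the only membrane arm gene whose genotypes overlapped.

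Leaving out 1 library lowered the membrane arm count, with median log2 fold changes of 0.57 to 0.72. Ndufa1, Ndufa10, Ndufab1 and Ndufb6 stayed past the threshold in all 4 such fits, and Ndufa11 in none (edgeR adjusted p 0.0609 to 0.156), although its log2 fold change stayed at 0.57 to 0.75. Leaving out the first Dis3-/- library alone ended the calls of Ndufa13 (0.00150 to 0.0814 over the 4 fits), Ndufb2 (0.00953 to 0.0719) and Ndufb9 (0.0158 to 0.0516), with log2 fold changes of 0.42, 0.61 and 0.44 in that fit against 0.62, 0.75 and 0.50 with all libraries. Leaving out the second wild-type library alone ended that of Ndufa3 (0.00729 to 0.0502; log2 fold change 0.56). Ndufa8 (log2 fold change 0.40 to 0.53) missed the threshold without the first Dis3-/- library (0.0752) and without the second wild-type library (0.105; 0.0347 at the lowest). Ndufb3 (0.74 to 1.14) missed it without the second Dis3-/- (0.143) or the second wild-type library (0.148; 0.0346 at the lowest). Ndufb4 (0.54 to 0.65) missed it without the second Dis3-/- (0.0717) or the first wild-type library (0.0700; 0.0182 at the lowest). Ndufb5 (0.0485 to 0.109), Ndufb10 (0.0340 to 0.103) and Ndufc2 (0.0417 to 0.241) passed only without the second Dis3-/- library, with log2 fold changes of 0.33 to 0.39, 0.42 to 0.56 and 0.33 to 0.55 over the 4 fits. Ndufc1 passed only without the first wild-type library (0.0265 to 0.187), where its log2 fold change was 1.64, against 0.87 at the lowest. Of the genes that had not passed, Ndufb7 did so without the first Dis3-/- library (0.0462 to 0.445) and Ndufb8 without the second wild-type library (0.0152 to 0.349).

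Of the 7 assembly factors 1 rose (14.3%, near the 12.7% of all tested genes), and their median log2 fold change was 0.47, against 0.54 for the 36 tested subunit-named genes. That median was 0.24 without the first Dis3-/- library and 0.22 without the second wild-type library. The difference between assembly factors and subunits was not tested. The factor that rose was Ndufaf4, which binds the Q module early in assembly, with 34.5 and 31.3 CPM in Dis3-/- cells and 19.2 and 14.0 CPM in wild-type cells (log2 fold change 0.98 ± 0.18, edgeR adjusted p = 0.00174). It stayed past the threshold in all 4 fits that left out 1 library, between 0.78 and 1.23. Its partner Ndufaf3 had 5.55 and 7.35 CPM in Dis3-/- cells and 6.48 and 6.51 CPM in wild-type cells, the only Nduf gene with a log2 fold change under 0 (-0.01 ± 0.32). The 2 proteins are known to act as a pair, and whether their genes differed in response was not tested.

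The remaining factors did not pass the test. Ndufaf5, an enzyme that hydroxylates an arginine of Ndufs7, had 7.74 and 7.82 CPM in Dis3-/- cells against 3.89 and 4.92 CPM in wild-type cells (log2 fold change 0.82 ± 0.34, edgeR adjusted p = 0.0943), with no overlap. Ndufaf1, which works on the membrane arm, had 20.9 and 12.7 CPM in Dis3-/- cells against 14.3 and 9.05 CPM in wild-type cells (0.51 ± 0.27), with overlap, and passed without the second Dis3-/- library (edgeR adjusted p = 0.0427; 0.0427 to 0.845 over the 4 fits). Ndufaf2, a paralogue of Ndufa12 that acts late in assembly, had 10.3 and 10.9 CPM in Dis3-/- cells against 9.94 and 5.24 CPM in wild-type cells (0.47 ± 0.31). For Ndufaf2 the spread lay in the wild-type pair. Ndufaf7, a mitochondrial methyltransferase, had 99 and 96 counts in Dis3-/- cells against 93 and 93 counts in wild-type cells, at means of 15.8 ± 1.17 CPM and 14.1 ± 0.969 CPM (SD; log2 fold change 0.17 ± 0.20). Ndufaf6 had 7.74 and 10.0 CPM in Dis3-/- cells against 9.22 and 7.78 CPM in wild-type cells (0.06 ± 0.28). The Ndufaf6 libraries overlapped between genotypes.

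Ndufa4 carries an Nduf name, but its protein is now known as a component associated with complex IV. It was the most abundant Nduf transcript by length-scaled level, at 998 and 1017 TPM in Dis3-/- cells and 641 and 678 TPM in wild-type cells. In CPM it stood at 164 and 161 in Dis3-/- cells and 95.9 and 103 in wild-type cells, and its log2 fold change of 0.71 ± 0.09 had the smallest adjusted p of the Nduf genes (edgeR, 7.83e-05). Ndufa4 passed in all 4 fits that left out 1 library. With the length offsets described further on its log2 fold change was lower, 0.29 with annotated and 0.15 with implied length. It was not called with implied length (edgeR adjusted p = 0.260). Without Ndufa4 the subunit-named genes had 22 of 35 higher (62.9%, against 12.7% of all tested genes) and a median of 0.51.

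**Figure D3:**
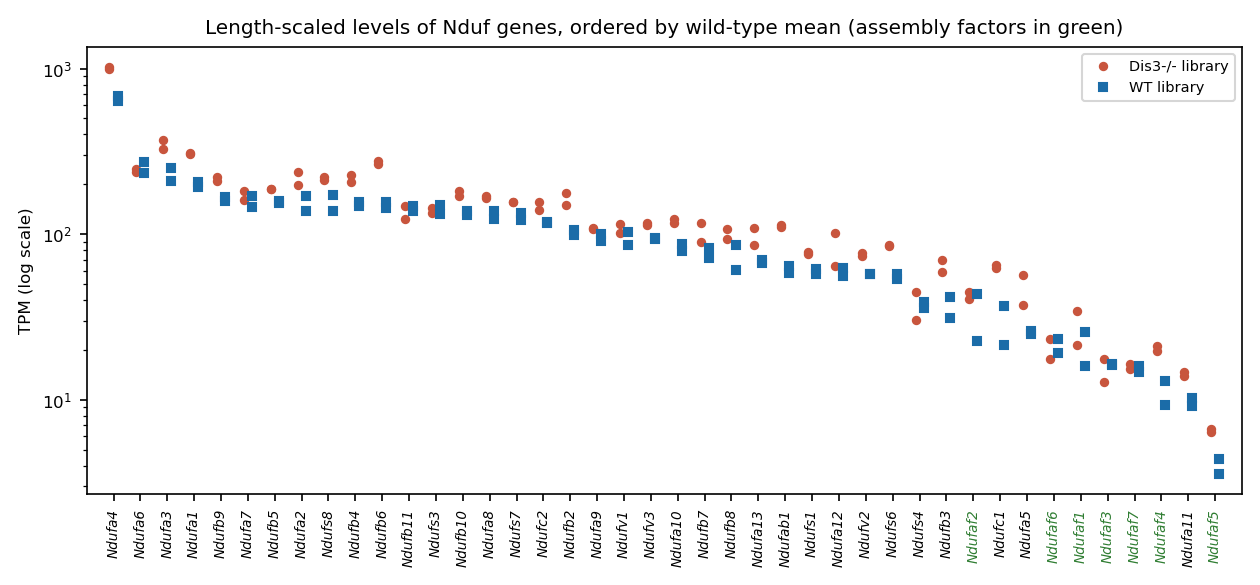
TPM (log scale) of 42 of the 43 tested Nduf genes in the 2 Dis3-/- libraries (circles) and the 2 wild-type libraries (squares), ordered by the wild-type mean, with assembly factors in green. Ndufa4 is highest in both genotypes and Ndufaf5 lowest, at 6.51 TPM on average in Dis3-/- cells and 3.98 TPM in wild-type cells.

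Subunit transcripts were more abundant per length than those of assembly factors. The median over genes was 138 TPM for subunit-named genes and 20.4 TPM for assembly factors in Dis3-/- cells, a ratio of 6.74, and 110 TPM against 16.4 TPM in wild-type cells, a ratio of 6.71. Below Ndufa4, the order of the subunits differed between genotypes. In Dis3-/- cells Ndufa3 (349 ± 32.8 TPM, SD, n = 2), Ndufa1 (307 ± 3.47 TPM), Ndufb6 (270 ± 7.70 TPM) and Ndufa6 (242 ± 6.98 TPM) followed in that order, and no neighbours among these overlapped in their 2 libraries. In wild-type cells Ndufa6 (253 ± 27.2 TPM) came first and overlapped with Ndufa3 (230 ± 30.5 TPM), while Ndufa1 (199 ± 10.5 TPM) and Ndufb6 (150 ± 8.32 TPM) had lower means than both. Across the 43 genes, log2 fold change and wild-type TPM had a Spearman rho of -0.17, a description over genes that share the same libraries.

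Fold changes in these libraries moved with gene length, and Nduf genes are short. Length was read as the ratio of counts to TPM, relative to the median tested gene, which follows the effective length behind the authors' TPM. Over all tested genes the Spearman rho of log2 fold change with this length was -0.25, across genes that are not independent. Over 10 classes of equal gene number, the median log2 fold change was 0.25 and 23.7% rose in the shortest class, against -0.13 and 8.49% in the longest. Of the 43 Nduf genes 30 lie in the shortest class, where 18 of them rose and their median was 0.54. The 6 that rose outside it were Ndufaf4, at 1.31 times the median gene's length, Ndufs1 at 0.987 times, Ndufa11 at 0.939 times, and Ndufa10, Ndufa13 and Ndufv2. Lengths and GC content were therefore also entered into the fit as an offset per library.

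**Figure D4:**
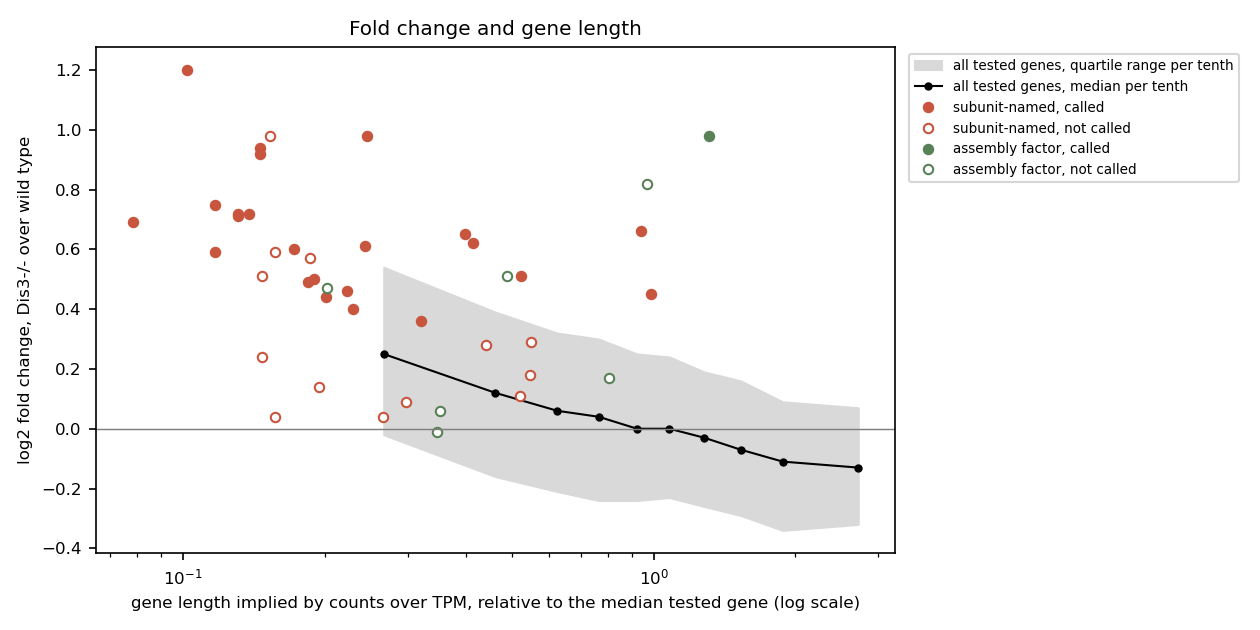
Log2 fold change (Dis3-/- over wild type) against gene length implied by counts over TPM (log scale, relative to the median tested gene) for 43 Nduf genes, with the median and quartile range of all tested genes in 10 length classes. The black line runs between 0.25 in the shortest class and -0.13 in the longest, and 18 of the 30 Nduf genes in the shortest class were called higher.

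With an offset for annotated transcript length and GC content, 9 Nduf genes rose, against 11.7% of all genes higher, and 14 had an unadjusted p under 0.05. The 9 were Ndufa4, Ndufa10, Ndufa13, Ndufab1, Ndufaf4, Ndufb2, Ndufb6, Ndufs1 and Ndufs8. The medians became 0.27 for subunit-named genes and 0.11 for assembly factors. With the length implied by counts over TPM, 8 genes rose (against 12.0% of all genes) and 1 fell, and the medians were 0.19 and 0.16. The gene that fell was Ndufa6 (log2 fold change -0.38, edgeR adjusted p = 0.0437; its adjusted p ranged between 0.0437 and 0.970 over the settings tried). The matrix and membrane arms, at 0.35 and 0.62 without an offset, stood at 0.22 and 0.38 with annotated length and at 0.18 and 0.20 with implied length. Ndufa10, Ndufab1 and Ndufb6 were called higher in each of the 16 alternative settings that had a test. With the implied-length offset their log2 fold changes were 0.52, 0.73 and 0.47, and that of Ndufaf4 was 0.96.

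Ndufv3, a small subunit at the tip of the N module that is made as a long and a short isoform, was the one Nduf gene whose implied length differed by 0.1 or more on the log2 scale. Its counts per TPM corresponded to 0.170 and 0.179 of the median gene's length in the Dis3-/- libraries and to 0.206 and 0.211 in the wild-type libraries, a log2 change of -0.26. The other 41 of the 42 Nduf genes with at least 20 counts changed by under 0.1, and 1.10% of 10715 genes changed by 0.1 or more. By construction, a shorter implied length means more weight on shorter transcripts in the authors' estimate. GENCODE M21 lists coding Ndufv3 transcripts of 1582, 645 and 493 bases. In CPM, Ndufv3 had 25.1 and 26.0 in Dis3-/- cells and 22.9 and 23.3 in wild-type cells (log2 fold change 0.14 ± 0.16, edgeR adjusted p = 0.562), and in TPM it had 114 and 116 in Dis3-/- cells and 95.3 and 93.2 in wild-type cells. On log2(TPM + 1) limma gave a log2 fold change of 0.28 for Ndufv3, past the threshold (adjusted p = 0.0441; 0.0441 to 0.834 over the settings tried). The deposited tables hold gene totals, so which Ndufv3 transcript differed was not tested.

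**Figure D5:**
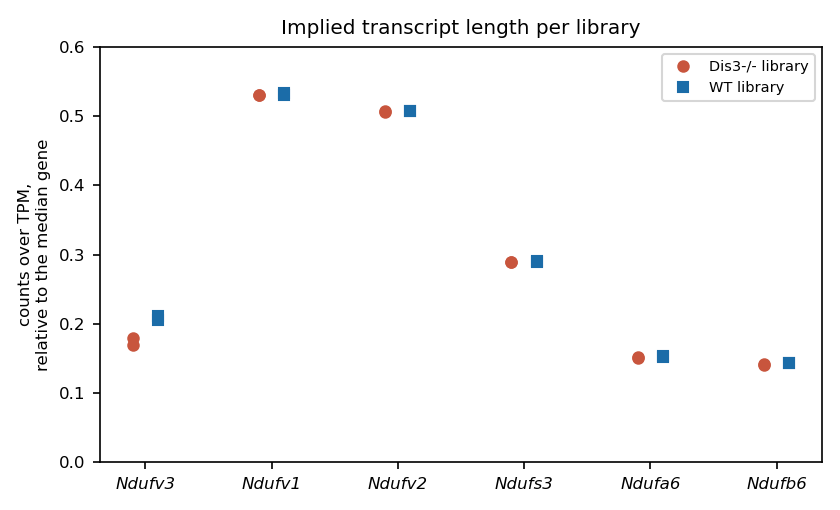
Counts over TPM per library, relative to the median gene, for Ndufv3 and 5 other Nduf genes, Dis3-/- (circles) left of wild type (squares). Ndufv3 lies at 0.170 and 0.179 in Dis3-/- cells and at 0.206 and 0.211 in wild-type cells, while the libraries of each other gene nearly coincide.

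Of the 43 tested Nduf genes and the 2 at 0, 15 overlap another gene of the table in the annotation, 14 of them on the opposite strand. Whether counting used strand is not stated, so reads of such partners cannot be told apart where they overlap. Overlaps were measured between whole gene spans, introns included, so their lengths do not give the transcript bases shared. The longest are 14695 bases of Ndufs1 with the noncoding Ino80dos and 4727 bases of Ndufaf2 with Smim15. Ndufb2 shares 146 bases with Braf and Ndufaf3 shares 48 bases with Impdh2. The counts of Ndufs1, Ndufa7 and Ndufa13 were not whole, so that part of their reads was divided by estimate with other genes.

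Among the complex I assembly factors that carry no Nduf name 2 of 14 tested rose (14.3%, near the 12.7% of all tested genes). Their median log2 fold change was 0.27. By edgeR 0 fell, and DESeq2 called 0 lower. At an unadjusted p under 0.05 edgeR had 4 higher and 0 lower, against 19.0% and 16.7% of all tested genes. Tmem70, a factor of membrane arm and ATP synthase assembly, had 31.3 and 35.3 CPM in Dis3-/- cells against 21.3 and 23.8 CPM in wild-type cells (log2 fold change 0.56 ± 0.16, edgeR adjusted p = 0.0186). Tmem261 (Dmac1), a distal-arm factor, had 15.1 and 16.1 CPM in Dis3-/- cells against 9.08 and 10.2 CPM in wild-type cells (0.70 ± 0.22, edgeR adjusted p = 0.0344). Tmem70 missed the threshold without the second Dis3-/- library (0.115) or the first wild-type library (0.0949; 0.0114 at the lowest), and Tmem261 in all 4 such fits (0.0611 to 0.138). Their log2 fold changes in these fits were 0.48 to 0.65 and 0.62 to 0.78. Acad9 (0.28 ± 0.12) and Tmem186 (0.30 ± 0.13), partners of Ndufaf1 in membrane arm assembly, did not pass.

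Of 14 genes for iron-sulfur cluster synthesis, which supplies the clusters of the Ndufs and Ndufv subunits, 1 rose and 2 fell. The share that rose was 7.14%, against 12.7% of all tested genes, and 10.2% of all tested genes fell. Hspa9, the mitochondrial chaperone of cluster transfer, had 346 and 341 CPM in Dis3-/- cells against 242 and 261 CPM in wild-type cells (log2 fold change 0.45 ± 0.08, edgeR adjusted p = 8.63e-04). Isca1, which is needed for the larger cluster type, had 154 and 130 CPM in Dis3-/- cells against 199 and 199 CPM in wild-type cells (-0.49 ± 0.09, edgeR adjusted p = 0.00188). Hspa9 and Isca1 passed in all 4 fits that left out 1 library. Hscb, the co-chaperone of Hspa9, had 21.2 and 24.1 CPM in Dis3-/- cells against 31.1 and 31.4 CPM in wild-type cells (-0.46 ± 0.16, edgeR adjusted p = 0.0450), and missed the threshold in all 4 of those fits (0.0638 to 0.204; log2 fold change -0.56 to -0.37).

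Of 13 tested regulators of nuclear respiratory genes 2 rose by edgeR (15.4%, near the 12.7% of all tested genes) and 0 fell. The numbers were the same at an unadjusted p under 0.05, where 19.0% of all tested genes were higher. DESeq2 called 0 regulators lower. Nrf1, whose motif was searched above, had 91.9 and 91.6 CPM in Dis3-/- cells against 72.8 and 70.8 CPM in wild-type cells (log2 fold change 0.35 ± 0.10, edgeR adjusted p = 0.0168). Pprc1, a coactivator of NRF1, had 202 and 192 CPM in Dis3-/- cells against 161 and 161 CPM in wild-type cells (0.30 ± 0.08, edgeR adjusted p = 0.0163). Nrf1 missed the threshold without the first (0.0502) or second wild-type library (0.0776; 0.0366 at the lowest). Pprc1 passed it only without the second Dis3-/- library (0.0227 to 0.0715 over the 4 fits). Over these fits the log2 fold change was 0.33 to 0.37 for Nrf1 and 0.27 to 0.33 for Pprc1. Myc had 141 and 120 CPM in Dis3-/- cells and 120 and 110 CPM in wild-type cells (0.18 ± 0.10, edgeR adjusted p = 0.202).

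Genes of the other respiratory complexes were counted in the same way. Of 43 genes of complexes II to V 32 rose by edgeR (74.4%, against 12.7% of all tested genes) and 0 fell. At an unadjusted p under 0.05 edgeR had 35 higher and 0 lower, against 19.0% and 16.7% of all tested genes. DESeq2 called 0 of the 43 lower. Their median log2 fold change was 0.53, against 0.51 for Nduf genes. The counts were 2 of 8 for complex II, 6 of 9 for complex III, 9 of 10 for complex IV and 15 of 16 for complex V, the ATP synthase. The complex II list, unlike the others, also holds assembly factors (Sdhaf genes), none of which was called. The 2 that rose were the subunits Sdhb and Sdhd. Its other subunits, Sdha among them (edgeR adjusted p = 0.0524), did not pass. With the offset for implied length, 13 of the 43 rose and the median was 0.19, against 8 and 0.18 for Nduf genes. With that offset 12.0% of all tested genes rose. No test set the complexes against one another.

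Beside these Nduf values stand the markers of other blood and marrow cell types, summed per library. Markers counted as fallen had an edgeR adjusted p under 0.05, as did 10.2% of all tested genes in that direction. The lists hold few tested genes. Granulocyte markers (10 genes, Ctsg at 0 in every library) summed to 147 and 147 CPM in Dis3-/- libraries and 247 and 233 CPM in wild-type libraries, and 2 of 3 tested fell. Monocyte and macrophage markers (9 genes, Ly6c2 at 0) summed to 530 and 542 CPM in Dis3-/- libraries and 639 and 679 CPM in wild-type libraries, and 2 of 4 tested fell. Endothelial and stromal markers (8 genes) summed to 83.8 and 76.9 CPM in Dis3-/- libraries and 149 and 140 CPM in wild-type libraries, and 2 of 3 tested fell. All 3 of these sums were lower in both Dis3-/- libraries, and most of each came from few genes. Csf3r made up most of the granulocyte sum (122 and 125 against 212 and 202 CPM), while Elane and Mpo stayed at or under 1.58 CPM. Psap (318 and 340 against 414 and 428 CPM) and Lyz2 (180 and 168 against 183 and 198 CPM) led the monocyte and macrophage sum. Pecam1 (74.7 and 65.0 against 110 and 112 CPM) led the endothelial and stromal sum. Megakaryocyte markers (10 genes, Gp6 at 0) summed to 207 and 224 CPM in Dis3-/- libraries and 228 and 313 CPM in wild-type libraries, and 1 of 6 tested fell. Erythroid markers (12 genes; Hba-a2, Hbb-bs and Car1 at 0) summed to 182 and 130 CPM in Dis3-/- libraries and 168 and 189 CPM in wild-type libraries, and 2 of 6 tested fell. T and NK cell markers (8 genes found; Cd3e, Cd3g and Gzma at 0) summed to 84.2 and 66.3 CPM in Dis3-/- libraries and 65.1 and 89.6 CPM in wild-type libraries. Most of the T and NK cell sum was Nkg7, at 81.6 and 64.1 CPM in Dis3-/- cells and 60.5 and 85.0 CPM in wild-type cells. The erythroid and T and NK cell sums overlapped between genotypes. B cell markers (8 genes; Ms4a1 and Ebf1 at 0) summed to 13.0 and 14.1 CPM in Dis3-/- libraries and 14.8 and 16.8 CPM in wild-type libraries. The megakaryocyte and B cell sums too were lower in both Dis3-/- libraries. The part of all these cell types in the Nduf values was not tested.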

How the data were processed

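RNA of 4 libraries was analysed, 2 of Dis3-/- and 2 of wild-type stem cells. RSEM 1.3.3, STAR 2.7.8a and Trim Galore 0.6.6 are listed in the submitters' processing notes beside the mm10 build, with no role, annotation or strand setting stated. The authors deposited a table of expected counts per gene, which RSEM-type estimation divides among genes that share reads and which are not normalized. They also deposited a table of TPM values, in which the authors corrected for gene length and set each library to 1 common sum. The tables held 0 columns of other samples.

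The quasi-likelihood test of edgeR 4.0.16 (R 4.3.3) was run on the expected counts after rounding them (filterByExpr, minimum count 10, minimum total 15; TMM scaling; glmQLFit and 2-sided glmQLFTest). Benjamini-Hochberg adjustment ran over 12244 genes, with a threshold of 0.05. The SE is the log2 fold change divided by the square root of the F statistic. CPM values use TMM-scaled library sizes; a floor of 3 counts amounted to 0.432 to 0.505 CPM, and covers counting error only. In simulated counts for this comparison the procedure recovered 29.9% of 67 genes changed by 0.5 on the log2 scale and 67.2% of 67 changed by 1. Replicates differed beyond counting noise (chi-square per degree of freedom 4.11 in Dis3-/- and 3.51 in wild-type libraries) and none held identical values.

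Alternatives used DESeq2 1.42.0, limma 3.58.1 (voom, and log2(TPM + 1) or log2(TPM + 0.1)), other scalings and filters, offsets for length and GC content (smooths from mgcv 1.9.3), a replicate block, and leaving out each library. The offset on implied length was chosen after seeing the data. Coordinates and promoters are from RefSeq GRCm38.p6, transcript lengths from GENCODE M21. Values per library were given for the core subunits, the Ndufaf genes, the 6 largest called changes, Ndufa4, and members not called with a mean of at least 10 CPM. Genes of other lists were named by the smallest p, at most 4 a list. The remaining values of members, Procr, Cd48, Ly6a, 1810043H04Rik, Elane, Mpo and the marker genes at 0 lie outside these rules and were picked with their values known. Some genes that these rules name are not reported here. The members, lists and tests were chosen with earlier results of these data known. Promoters shown were chosen for their motifs and calls.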

Additional observations from a re-analysis of the deposited data

How the results depend on the processing

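The number of Nduf genes called changed with the setting, and the cause was not tested. The count of Nduf genes called higher was 24 to 26 with other size factors, no filter, limma-voom, robust estimation or without Rn45s and Lars2. In those fits 10.7% to 13.5% of all genes rose. The count was 25 on log2(TPM + 1) (7.29% of all genes) and 25 on log2(TPM + 0.1) (7.02%). DESeq2 called 11 (8.17% of all genes). On log2(TPM + 1) without a filter 11 were called (2.91% of all genes), 8 in the membrane arm and 2 in the matrix arm. The length and GC offset gave 9 (11.7% of all genes), and the implied-length offset 8 (12.0%), with 1 lower. Leaving out 1 library gave 15 to 18. Replicate numbers did not pair the libraries (correlation of deviations -0.029), and a replicate block gave 20 Nduf genes called higher (11.9% of all genes). With the block 1 iron-sulfur gene, not 2, fell, and DESeq2 and each fit without 1 library also left 1. For complexes II to V the counts were 18 with the length and GC offset and 13 with implied length (main 32). For the other complex I assembly factors they were 0 with DESeq2 and the length and GC offset, 1 in the 3 TPM fits and with implied length, and 0 to 1 higher and 0 to 1 lower without 1 library (main 2 and 0). For regulators they were 1 with DESeq2, 0 in the 3 TPM fits and 0 to 2 without 1 library (main 2).

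The median log2 fold change of subunit-named genes was 0.43 in the 3 TPM fits, where the median of all genes moved to -0.106, -0.112 and -0.087. It was 0.30 and 0.35 after subtraction of the median over genes similar in length and GC (annotated, implied length), 0.27 and 0.19 with the offsets, and 0.45 to 0.55 without 1 library. That of assembly factors was 0.11 and 0.16 with the offsets, 0.23 after subtraction of the implied-length median, and 0.22 to 0.66 without 1 library. The ratio of subunit to assembly factor levels was 5.15 in Dis3-/- and 6.49 in wild-type cells as CPM over transcript length, 6.95 to 7.62 without 1 Dis3-/- library and 6.75 to 6.79 without 1 wild-type library.

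Ndufa6, Ndufa7, Ndufaf3, Ndufaf6, Ndufb11, Ndufs3, Ndufs4 and Ndufv3, none of which passed the edgeR test above, changed sign in some settings. In the 3 TPM fits Ndufa6 stood at -0.06, Ndufaf6 at -0.05, Ndufb11 at -0.07, Ndufs3 at -0.02 and Ndufs4 at -0.03. With the length and GC offset Ndufa6 stood at -0.33, Ndufa7 at -0.14, Ndufaf6 at -0.13, Ndufb11 at -0.19, Ndufs3 at -0.09 and Ndufs4 at -0.04; with implied length they stood at -0.38, -0.20, -0.10, -0.15, -0.07 and -0.03, and Ndufv3 at -0.15. After subtraction of the median over genes similar in annotated length Ndufa6 stood at -0.21, Ndufaf6 at -0.12, Ndufb11 at -0.26, Ndufs3 at -0.16 and Ndufs4 at -0.04. With implied length these were -0.23, -0.13, -0.22, -0.14 and -0.05, with Ndufa7 at -0.03 and Ndufv3 at -0.13. Without 1 library the ranges were -0.06 to 0.14 for Ndufa6, -0.22 to 0.18 for Ndufaf3, -0.13 to 0.24 for Ndufaf6, -0.07 to 0.14 for Ndufb11, -0.01 to 0.19 for Ndufs3 and -0.17 to 0.34 for Ndufs4. Low counts of Ndufaf3, Ndufaf5, Ndufaf6, Ndufa5 and Ndufc1 limit their precision. Dis3 kept its direction in every setting and its call in every setting with a test, between -1.21 and -0.85.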
